A study of Rattus norvegicus with 6 samples.

Results

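The clock output factors of liver are transcription factors that pass the rhythm of the circadian clock on to other genes, and 7 of them were chosen by name: Dbp, Tef, Hlf, Nfil3, Bhlhe40, Bhlhe41 and Ciart. Every probe set of an Affymetrix rat genome array whose single gene symbol was 1 of these names was taken, which gave 11 of the 31042 probe sets tested. They measured 6 of the 7 genes, with 3 probe sets for Tef, 4 for Hlf and 1 each for Dbp, Nfil3, Bhlhe40 and Bhlhe41. Ciart, a repressor of CLOCK and BMAL1, had no probe set under this rule and is named without a value.

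Whole-liver RNA was measured on 6 arrays, 2 for each of 3 groups. BBDR.lyp/lyp rats are homozygous for lyp, a germline frameshift in Gimap5 that causes lymphopenia, and they become diabetic spontaneously. Their livers were measured pre-hyperglycemia at an age of 50 days and post-hyperglycemia at 55 days, both within 5 days by the labels. BBDR.+/+ rats of 55 days, within 5 days, carry no lyp allele, stay normoglycemic and share the diabetes-resistant BBDR background and the housing. Pre- and post-hyperglycemia arrays therefore differ in age as well as in glycemia, and the contributions of these cannot be told apart. The labels do not tie an array to a rat, so the p-values measure the spread between these samples, which may be technical. The methods describe liver taken at several ages, with a final sample during hyperglycemia. Pre- and post-hyperglycemia arrays may therefore come from the same rats, while the fit treats all arrays as independent. The number of arrays limits the precision.

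CLOCK and BMAL1 switch on genes that carry an E-box, among them those of Dbp, Tef and Bhlhe40, and the protein products act in opposite ways. Dbp, Tef and Hlf are the PAR bZIP family, activators that bind a D-box and drive detoxification and bile acid genes in liver, while Nfil3 is a bZIP repressor that binds the same element. Bhlhe40 and Bhlhe41, also named Dec1 and Dec2, are bHLH repressors that occupy E-boxes and hold back CLOCK and BMAL1 output. The level of each such transcript depends on the hour at which liver is taken, and the methods state a window around midday for the drawing of venous blood but no hour for the livers. Food intake also moves them, and on this the sources differ: the labels describe a fast before collection and the methods free access to food.

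The promoters below show the E-box in the member with the clearest difference between groups, its paralog and a PAR bZIP gene. The members were chosen as clock output factors, some of them known E-box genes. The share of them with an E-box is therefore not independent of the choice. RefSeq (build GRCr8) gave a promoter of 300 bases, from 250 before to 50 after a transcription start, for 6 of the 7 genes, and none was held for Hlf. The E-box CACGTG, which reads alike on both strands, stood in 4 of them, Bhlhe40, Tef, Bhlhe41 and Ciart, against 6.42% of the 33469 promoters in the same table. Ciart (chr2:186112197-186112496, minus strand) held 3 copies, and 0.52% of all promoters held at least 2. Neither D-box searched on both strands, TTATGTAA or TTACGTAA, was found in any of the 6, and they stood in 0.893% and 0.12% of all promoters. In Dbp (chr1:105312006-105312305, plus strand) and Nfil3 (chr17:12432126-12432425, plus strand) this window held none of these motifs. The start used lies inside the annotated gene for Tef, Bhlhe41 and Ciart and at its edge for the others. Capitals mark the E-box, which begins at -220 from the start in Bhlhe40 (chr4:143174200-143174499, plus strand), at -48 in Bhlhe41 (chr4:180569306-180569605, minus strand) and at -198 in Tef (chr7:115206577-115206876, plus strand). A match describes the letters of the window only.
Bhlhe40: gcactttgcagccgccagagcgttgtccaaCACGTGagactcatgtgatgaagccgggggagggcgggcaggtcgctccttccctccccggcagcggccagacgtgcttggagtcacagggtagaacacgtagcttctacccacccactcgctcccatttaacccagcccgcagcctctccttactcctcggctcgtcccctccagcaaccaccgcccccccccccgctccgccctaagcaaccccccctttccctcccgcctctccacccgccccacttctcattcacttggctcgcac
Bhlhe41: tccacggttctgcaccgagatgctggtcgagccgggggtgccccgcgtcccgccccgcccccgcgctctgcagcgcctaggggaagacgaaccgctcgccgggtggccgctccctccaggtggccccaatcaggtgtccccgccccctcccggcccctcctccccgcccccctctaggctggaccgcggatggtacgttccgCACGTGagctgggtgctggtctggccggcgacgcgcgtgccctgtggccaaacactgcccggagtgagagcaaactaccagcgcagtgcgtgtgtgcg
Tef: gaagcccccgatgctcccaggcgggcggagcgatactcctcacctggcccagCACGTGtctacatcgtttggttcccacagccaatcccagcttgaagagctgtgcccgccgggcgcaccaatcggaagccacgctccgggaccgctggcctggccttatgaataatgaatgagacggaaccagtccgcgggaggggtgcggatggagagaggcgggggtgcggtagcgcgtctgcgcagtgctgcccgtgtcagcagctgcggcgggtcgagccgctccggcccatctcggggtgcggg

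All values below are the deposited normalized log2 signals, and a difference of group means is a log2 fold change from limma, fitted to the 6 arrays and adjusted by Benjamini-Hochberg over all 31042 probe sets. A probe set was called at an adjusted p under 0.05. The signals of different probe sets were not compared with each other. Signs follow the deposited labels, so that a positive value is higher post-hyperglycemia, or higher pre-hyperglycemia where that group is compared with BBDR.+/+. Of 23 insulin- and glucose-regulated genes with a listed direction in the study, 20 were matched by symbol, and all 20 ran opposite to it in both comparisons with post-hyperglycemia arrays, by the probe set with the smallest p. For Dusp1, at -2.02 against BBDR.+/+ and -1.37 against pre-hyperglycemia, the sizes matched the listed fold changes and only the sign differed. Why the signs differ was not tested, so each direction below that involves these arrays holds for the arrays as labelled.

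Arrays of a group correlated at 0.996 to 0.997 and arrays of different groups at 0.990 to 0.996 over all probe sets. The control probe sets for the 3' and 5' ends of beta-actin and GAPDH, averaged over both transcripts, differed by 1.68 to 1.74 post-hyperglycemia, 0.93 to 1.09 pre-hyperglycemia and 0.78 to 1.04 in BBDR.+/+, so the post-hyperglycemia arrays stood apart. Of the hepatocyte markers, 6 of 7 were measured, all at or above the 99.8th percentile of brightness by the brightest probe set of each gene, and by these 0 were called in any comparison (at most 1 at an unadjusted p under 0.05). A dimmer probe set of Cps1, an enzyme of the urea cycle, was at -0.85 post-hyperglycemia versus BBDR.+/+ (1370151_at, adjusted p = 0.00320, limma).

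Bhlhe40 was called lower post-hyperglycemia than in both other groups. Its signal was 8.16 and 8.46 on the post-hyperglycemia arrays, 8.95 and 9.20 pre-hyperglycemia and 8.97 and 9.15 in BBDR.+/+. Both post-hyperglycemia arrays lay below all other arrays, while the pre-hyperglycemia and BBDR.+/+ arrays covered the same range. Relative to BBDR.+/+ the mean fell by 0.75 (SE 0.13, 95% interval -1.04 to -0.45, adjusted p = 0.0106, limma), to 59.6% of the BBDR.+/+ signal. Relative to pre-hyperglycemia it fell by 0.76 (SE 0.13, interval -1.06 to -0.46, adjusted p = 0.0181, limma). Pre-hyperglycemia and BBDR.+/+ differed by 0.02, with an interval from -0.28 to 0.31. Bhlhe40 is also among the genes that the study selected from these comparisons, so these calls are not independent evidence of its direction.

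**Figure D1:**
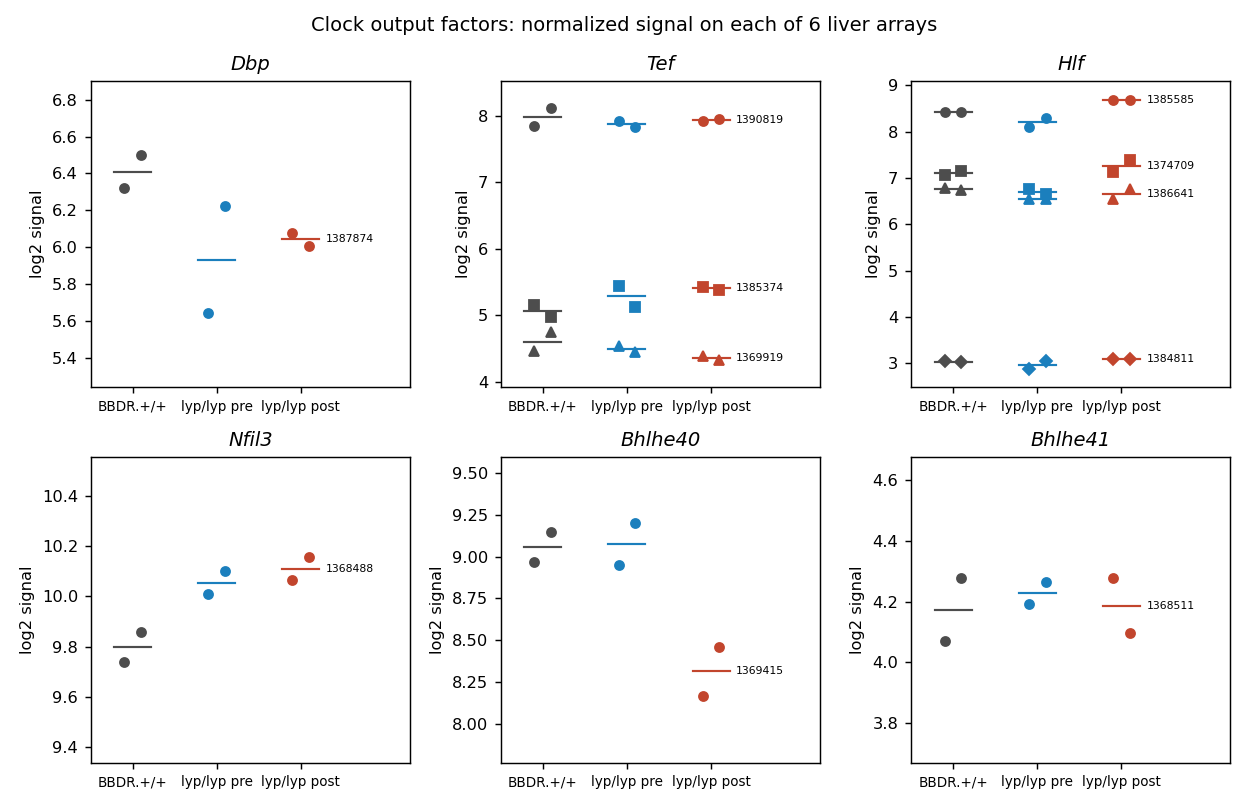
Normalized log2 signal (vertical axis, a separate range in each panel) of the 11 probe sets of 6 clock output factors in BBDR.+/+, BBDR.lyp/lyp pre-hyperglycemia (lyp/lyp pre) and BBDR.lyp/lyp post-hyperglycemia (lyp/lyp post) liver. Points are arrays, bars are means of 2 arrays, and symbols with numbers tell the probe sets of a gene apart. The Bhlhe40 points post-hyperglycemia, at 8.16 and 8.46, lie below those of the other groups, and the Hlf probe set 1385585_at is highest there.

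The Bhlhe40 signal also ran with the difference between transcript ends in the controls. In each of the 3 groups the second array had the smaller control difference and the higher Bhlhe40 signal, and the 2 post-hyperglycemia arrays had the largest control differences and the lowest Bhlhe40 signals. With the control difference as a covariate, an alternative added after seeing the data, the Bhlhe40 difference was 0.11 against BBDR.+/+ (adjusted p = 0.975, limma) and -0.02 against pre-hyperglycemia (adjusted p = 0.996). In that fit 0 of the 31042 probe sets were called in either comparison with post-hyperglycemia arrays, so the loss of a call is not particular to Bhlhe40. The control difference nearly coincides with the post-hyperglycemia group, so its part in the Bhlhe40 difference cannot be told apart from that of the group. A single probe set measured Bhlhe40, so no other part of the transcript was available for comparison. The call against BBDR.+/+ was lost without BBDR.+/+ replicate 2 (-0.66) and without post-hyperglycemia replicate 1 (-0.60). The call against pre-hyperglycemia was lost without pre-hyperglycemia replicate 2 (-0.64) and without post-hyperglycemia replicate 1 (-0.61). Each of these fits leaves 1 array in a group, and calls over all probe sets fell as well.

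**Figure D2:**
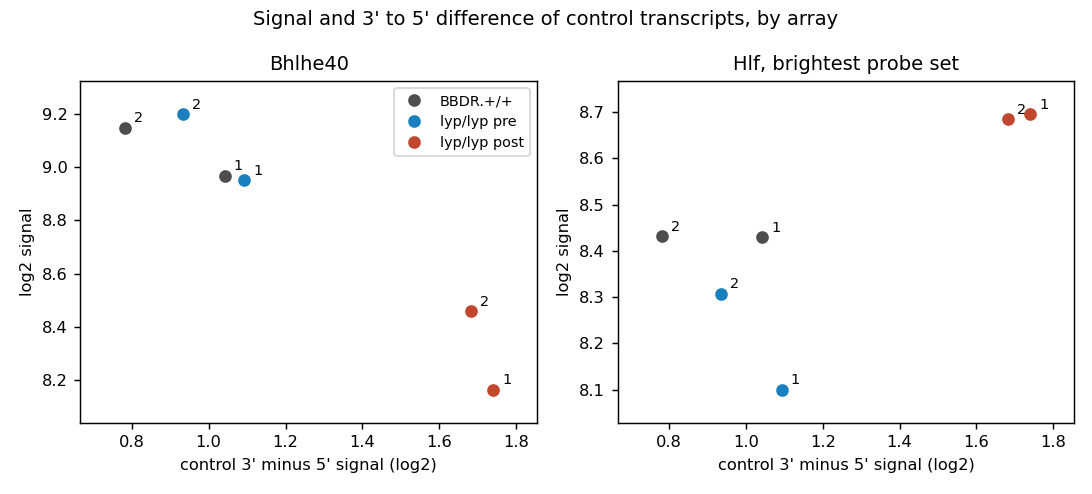
Normalized log2 signal of Bhlhe40 (left) and of the Hlf probe set 1385585_at (right) on the vertical axes against the mean 3' minus 5' log2 difference of the beta-actin and GAPDH controls on the horizontal axis. Each point is 1 of 6 arrays, numbered by replicate and coloured by group. The post-hyperglycemia arrays have control differences of 1.68 and 1.74 and stand apart from the other 4 in both panels.

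Bhlhe41, the paralog of Bhlhe40, was not called in any comparison by limma. Its signals were 4.28 and 4.10 post-hyperglycemia, 4.19 and 4.27 pre-hyperglycemia and 4.07 and 4.28 in BBDR.+/+, and the 3 groups overlapped. The probe set was dim, at the 19.6th percentile of brightness. The difference from BBDR.+/+ post-hyperglycemia was 0.01, with an interval from -0.24 to 0.27, and that from pre-hyperglycemia was -0.04 (-0.30 to 0.21). Whether the paralogs differed from each other in response was not tested.

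Among the PAR bZIP activators, Hlf was called higher post-hyperglycemia than pre-hyperglycemia by its brightest probe set and 1 other, and was not called by the remaining probe sets. The brightest, 1385585_at, read 8.70 and 8.68 post-hyperglycemia, 8.10 and 8.31 pre-hyperglycemia and 8.43 and 8.43 in BBDR.+/+. The groups fell in 3 separate ranges, with BBDR.+/+ between the lyp/lyp groups. The rise over pre-hyperglycemia was 0.49 (SE 0.11, interval 0.25 to 0.72, adjusted p = 0.0463, limma), a ratio of 1.40.

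Probe set 1374709_at of Hlf read 7.13 and 7.39 post-hyperglycemia, 6.76 and 6.65 pre-hyperglycemia and 7.07 and 7.16 in BBDR.+/+. Here the pre-hyperglycemia arrays were the lowest, and the other groups overlapped. Its rise over pre-hyperglycemia was 0.56 (SE 0.12, interval 0.30 to 0.82, adjusted p = 0.0388, limma). The other probe sets gave 0.13 for 1384811_at, which at the 3.5th percentile is among the dimmest on the array, and 0.11 for 1386641_at, with adjusted p of 0.630 and 0.728 from limma. When the probe sets of a gene were averaged before the fit, 1 member was called in this comparison and Hlf was not. The deposited annotation does not say which Hlf transcripts each probe set reads.

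Both Hlf calls lay close to the threshold and were lost in the fit without any 1 of the 6 arrays, where calls over all probe sets also fell. The differences of post- from pre-hyperglycemia in these fits were 0.42 to 0.69 for 1374709_at and 0.38 to 0.59 for 1385585_at. With the control difference as a covariate they were 0.71 and 0.72, in the same direction, and not called (adjusted p = 0.759 and 0.723, limma). No probe set of the array was called in that comparison with the covariate. Against BBDR.+/+ the Hlf probe sets were not called post-hyperglycemia, at 0.26 for 1385585_at (adjusted p = 0.211, limma), 0.15, 0.06 and -0.11. Pre-hyperglycemia they were not called either, at -0.41 for 1374709_at (adjusted p = 0.187), -0.23, -0.22 and -0.07, all below BBDR.+/+.

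Dbp, the PAR bZIP factor with the deepest daily rhythm in liver, was not called in any comparison. Its signals were 6.08 and 6.01 post-hyperglycemia, 5.64 and 6.22 pre-hyperglycemia and 6.32 and 6.50 in BBDR.+/+. All 4 lyp/lyp arrays lay below both BBDR.+/+ arrays, and the pre-hyperglycemia pair spread so far that it enclosed the post-hyperglycemia pair. The difference from BBDR.+/+ was -0.48 pre-hyperglycemia (SE 0.17, unadjusted p = 0.0152, adjusted p = 0.277, limma) and -0.37 post-hyperglycemia (SE 0.17, unadjusted p = 0.0489, adjusted p = 0.251). Between post- and pre-hyperglycemia it was 0.11, with an interval from -0.25 to 0.47. Without pre-hyperglycemia replicate 1 the pre-hyperglycemia difference from BBDR.+/+ was -0.19.

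Tef, the third PAR bZIP gene, was not called by any of its probe sets. The brightest, 1390819_at, read 7.92 and 7.95 post-hyperglycemia, 7.93 and 7.83 pre-hyperglycemia and 7.84 and 8.12 in BBDR.+/+, and the groups overlapped. The dimmer probe sets pointed in opposite directions against BBDR.+/+, at 0.34 for 1385374_at (unadjusted p = 0.0197, adjusted p = 0.154, limma) and -0.24 for 1369919_at (adjusted p = 0.294). In 1385374_at both post-hyperglycemia arrays, 5.43 and 5.39, lay above both BBDR.+/+ arrays, 5.15 and 4.98, while in 1369919_at they were below, at 4.39 and 4.32 against 4.46 and 4.75.

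Nfil3, the repressor that shares the D-box with these activators, had the brightest probe set among the members by percentile (93.9) and was the 1 member with higher signal on all 4 lyp/lyp arrays. It read 10.07 and 10.16 post-hyperglycemia, 10.01 and 10.10 pre-hyperglycemia and 9.74 and 9.86 in BBDR.+/+. The lyp/lyp groups overlapped each other and neither overlapped BBDR.+/+. The difference from BBDR.+/+ was 0.31 post-hyperglycemia (SE 0.11, interval 0.08 to 0.55, unadjusted p = 0.0132, adjusted p = 0.125, limma) and 0.26 pre-hyperglycemia (SE 0.11, interval 0.02 to 0.49, unadjusted p = 0.0333, adjusted p = 0.376). Neither passed the threshold. The first was called when only the brightest 30% of probe sets were tested (adjusted p = 0.0421, limma) or when the variance was allowed to follow the signal (adjusted p = 0.0402).

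**Figure D3:**
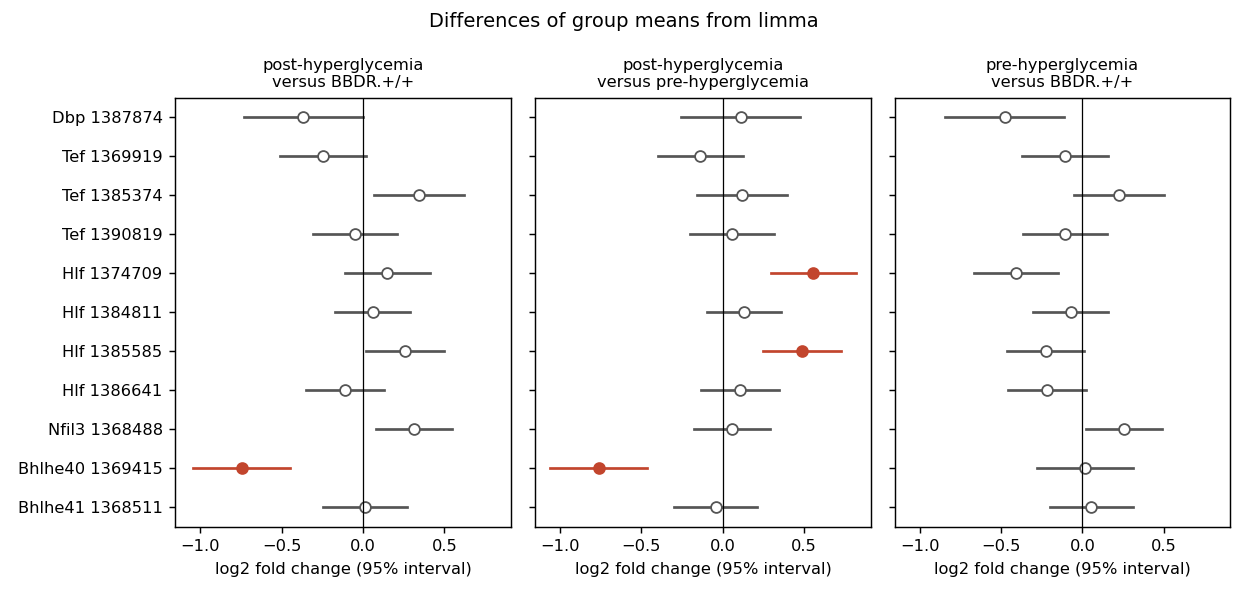
Log2 fold change (horizontal axis) of each of the 11 probe sets in the 3 comparisons, with the 95% interval from limma as a line. Filled red points passed an adjusted p of 0.05. They are Bhlhe40 in both comparisons with post-hyperglycemia arrays, at -0.75 and -0.76, and the Hlf probe sets 1374709_at and 1385585_at against pre-hyperglycemia, at 0.56 and 0.49.

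Counted over probe sets, post-hyperglycemia versus BBDR.+/+ gave 1 call among the 11, lower, and 5 at an unadjusted p under 0.05 by limma. At that unadjusted threshold 6108 of all 31042 probe sets passed. After adjustment 5.15% of all probe sets were called in this comparison, 1.89% higher and 3.26% lower, so 1 of 11 is near the background. Post- versus pre-hyperglycemia gave 3 calls, 2 higher from the same gene and 1 lower, beside 2.18% of all probe sets, 0.718% higher and 1.46% lower. Pre-hyperglycemia versus BBDR.+/+ gave 0 calls by limma, beside 0.718% of all probe sets, 0.464% higher and 0.254% lower. In that comparison 3 of the 11 had an unadjusted p under 0.05 by limma, beside 3533 of all 31042 probe sets. The methods' t-test gave 0 after Benjamini-Hochberg and 2 before, beside 1 and 2784 of all probe sets. The comparisons share arrays and their counts are not independent.

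The groups did not overlap in 7 of 11 probe sets post-hyperglycemia versus BBDR.+/+, 4 higher and 3 lower, where 48.8% of all probe sets did not overlap, 26.7% higher and 22.1% lower. Post- versus pre-hyperglycemia it was 5 of 11, 3 higher and 2 lower, beside 44.5%, 23.6% and 20.9%. Pre-hyperglycemia versus BBDR.+/+ it was 5 of 11, 1 higher and 4 lower, beside 42.6%, 21.6% and 21%. None of these shares stood far from its background. By the brightest probe set of each gene, the median difference over the 6 genes was -0.02, 0.06 and -0.04 in the 3 comparisons. Over the brightest probe sets of all genes it was 0.04, 0.01 and 0.02, and over all probe sets 0.01, 0.01 and -0.00. Centring the arrays on the ribosomal protein genes turned the split of all calls from 223 higher and 454 lower to 317 and 240 post- versus pre-hyperglycemia. It gave 265 and 1103 in place of 587 and 1012 post-hyperglycemia versus BBDR.+/+, and 61 and 162 in place of 144 and 79 pre-hyperglycemia versus BBDR.+/+. The calls of Bhlhe40 and of both Hlf probe sets stood under this and the other 2 scalings tried.

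Of the core clock genes that drive these factors, 11 were measured, by 20 probe sets. By the brightest of each gene, pre-hyperglycemia versus BBDR.+/+ gave 3 lower and 8 not called. Nr1d1, a nuclear receptor that represses Bmal1 and Nfil3, fell by 1.55 (adjusted p = 0.00105, limma), Nr1d2, its paralog, by 0.79 (adjusted p = 0.0356) and Per3, a period protein, by 0.71 (adjusted p = 0.0449). Nr1d1 read 6.85 and 7.01 pre-hyperglycemia, 7.86 and 8.22 post-hyperglycemia and 8.47 and 8.48 in BBDR.+/+, with the groups in 3 separate ranges. Like the Hlf probe sets 1385585_at and 1374709_at it was lowest on the pre-hyperglycemia arrays, while Bhlhe40 was lowest post-hyperglycemia. Nr1d1, Cyp7a1, Cdkn1a, Nampt, Dusp1, Srebf1, Por, S100a8 and S100a9, named here and below, are like Bhlhe40 among the genes that the study selected from these arrays.

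Post-hyperglycemia versus BBDR.+/+, 2 core clock genes were higher, 1 was lower and 8 were not called. Npas2, a partner of BMAL1 like CLOCK, was at 0.55 (adjusted p = 0.0114, limma), Cry1, a repressor of CLOCK and BMAL1, at 0.69 (adjusted p = 0.00407) and Nr1d2 at -0.55 (adjusted p = 0.0488). Post- versus pre-hyperglycemia, 1 was higher, Nr1d1 at 1.11 (adjusted p = 0.00328), and 10 were not called. Bmal1 was at -0.38 and -0.43 against BBDR.+/+ and pre-hyperglycemia (adjusted p = 0.0653 and 0.0643, limma). Clock and Per1, the activator and a period repressor, were at 0.08 and 0.01 against BBDR.+/+ and not called by their brightest probe sets. The medians over the 11 genes were 0.01 post-hyperglycemia versus BBDR.+/+, 0.13 against pre-hyperglycemia and 0.01 between pre-hyperglycemia and BBDR.+/+.

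Probe sets of 1 clock gene did not always move alike, as for Hlf and Tef. A dimmer Clock probe set, 1380098_at, was at -0.72 against BBDR.+/+ post-hyperglycemia (adjusted p = 0.00609, limma) where the brightest was not called. A dimmer Per2 probe set, 1368303_at, was at 0.89 post- versus pre-hyperglycemia (adjusted p = 0.00677) beside 0.07 for the brightest. Nr1d2 was lower post-hyperglycemia than in BBDR.+/+ by its dimmer probe sets too, at -1.35 for 1370541_at (adjusted p = 0.000573, limma) and -0.72 for 1370540_at (adjusted p = 0.0289). Pre-hyperglycemia versus BBDR.+/+ they were at -1.07 (adjusted p = 0.00504) and -0.61 (adjusted p = 0.148). Over all 20 probe sets, 6 were called post-hyperglycemia versus BBDR.+/+, 2 against pre-hyperglycemia and 4 between pre-hyperglycemia and BBDR.+/+. Of all 31042 probe sets, 5.15%, 2.18% and 0.718% were called in these comparisons. With the control difference as a covariate the first and second core clock counts were 0, as were those over all 31042 probe sets.

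**Figure D4:**
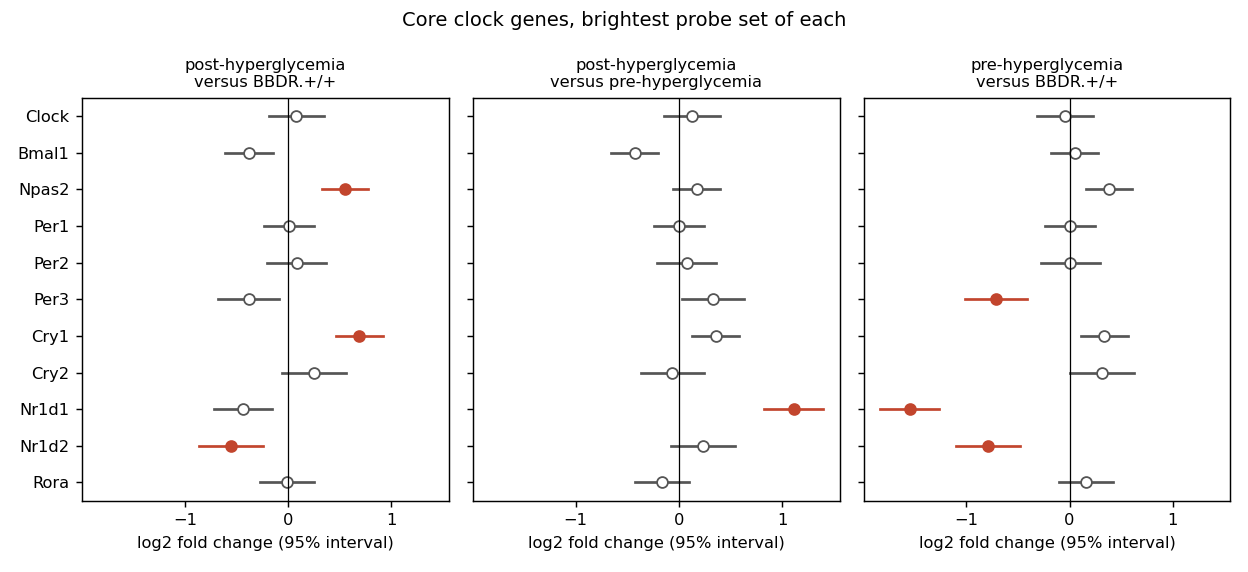
Log2 fold change (horizontal axis) with its 95% interval from limma for the brightest probe set of each of 11 core clock genes in the 3 comparisons. Filled red points passed an adjusted p of 0.05. Nr1d1 is at -1.55 pre-hyperglycemia versus BBDR.+/+ and at 1.11 post- versus pre-hyperglycemia, the points farthest from 0.

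Genes downstream of the factors were listed too, and here and in the lists below each gene was counted by its brightest probe set, and calls of dimmer ones are given separately. Of 8 target genes of the PAR bZIP factors and Nfil3, none was called against BBDR.+/+ post-hyperglycemia (0 also at an unadjusted p under 0.05) or pre-hyperglycemia (4 at an unadjusted p under 0.05, limma), and 1 was higher post- versus pre-hyperglycemia. That was Cyp7a1, the rate-limiting enzyme of bile acid synthesis and a target of Dbp, which rose by 0.58 (adjusted p = 0.0204, limma). It read 12.05 and 12.07 post-hyperglycemia, 11.53 and 11.43 pre-hyperglycemia and 11.96 and 11.81 in BBDR.+/+, so that the pre-hyperglycemia arrays were the lowest. A dimmer probe set of Por, the reductase that feeds electrons to cytochromes P450, was lower post-hyperglycemia, at -0.72 against BBDR.+/+ (1368213_at, adjusted p = 0.0324, limma) and -0.82 against pre-hyperglycemia (adjusted p = 0.0317). The medians of the 8 targets were 0.10, -0.02 and 0.10 for the comparisons post-hyperglycemia with BBDR.+/+, post- with pre-hyperglycemia and pre-hyperglycemia with BBDR.+/+, the order kept for the lists below.

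Of 5 other clock-controlled liver genes, 1 was higher, then 2, then 0 (2 there at an unadjusted p under 0.05, limma), with medians of 0.06, 0.08 and 0.08. Cdkn1a, the cell cycle inhibitor p21, rose by 0.79 against BBDR.+/+ (adjusted p = 0.00219, limma) and by 0.77 against pre-hyperglycemia (adjusted p = 0.00605). Nampt, the enzyme that salvages NAD, rose by 0.58 against pre-hyperglycemia (adjusted p = 0.0198), from 8.59 and 8.54 to 9.10 and 9.20, beside 9.03 and 9.14 in BBDR.+/+. A dimmer Nampt probe set was at -0.64 post-hyperglycemia versus BBDR.+/+ (1396262_at, adjusted p = 0.0167, limma). Of 4 measured genes of clock protein turnover, 0 were called in each comparison (2, 3 and 1 at an unadjusted p under 0.05, limma), with medians of 0.13, 0.16 and -0.04. Among their 9 dimmer probe sets, 2 of Csnk1d, a kinase that marks period proteins for degradation, were lower post-hyperglycemia than in BBDR.+/+ (-0.99, adjusted p = 0.00564, and -0.50, adjusted p = 0.0438, limma). Another, of the deubiquitinase Usp2, was higher post- than pre-hyperglycemia (0.54, adjusted p = 0.0428).

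The structural relatives of the factors gave 1 call by their brightest probe sets. Of 9 other liver bZIP factors, 1 was higher post-hyperglycemia than in BBDR.+/+, Cebpd, an acute phase factor, at 0.55 (adjusted p = 0.0286, limma), and 0 were called in the other comparisons (2 and 1 at an unadjusted p under 0.05), with medians of 0.07, 0.21 and 0.04. Of 7 other bHLH repressors of the Hes, Hey and Id families, 0 were called in each (1, 0 and 1 at an unadjusted p under 0.05, limma), with medians of -0.09, 0.02 and -0.12. Dimmer probe sets of Crem, a cAMP-responsive bZIP factor (1369738_s_at, -0.43, adjusted p = 0.0346, limma), and of Id2 (1368870_at, -0.64, adjusted p = 0.0157) were lower post-hyperglycemia than in BBDR.+/+.

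Genes that answer to glucocorticoids, insulin or fasting, inputs that also reach Bhlhe40 and Nfil3, were measured for 7 of 9. Post-hyperglycemia versus BBDR.+/+, 2 were lower, the phosphatase Dusp1 (-0.51, adjusted p = 0.0169, limma) and the lipogenic factor Srebf1 (-0.54, adjusted p = 0.0390). By the brightest probe sets none was called post- versus pre-hyperglycemia (4 at an unadjusted p under 0.05, limma). The dimmer Dusp1 probe set 1368147_at differed far more than the brightest. It read 7.38 and 7.81 post-hyperglycemia, 8.73 and 9.21 pre-hyperglycemia and 9.38 and 9.84 in BBDR.+/+. It was called at -2.02 against BBDR.+/+ (adjusted p = 0.000587, limma) and at -1.37 against pre-hyperglycemia (adjusted p = 0.00745). A dimmer Srebf1 probe set was at -0.93 against BBDR.+/+ (1371104_at, adjusted p = 0.0191, limma). Igfbp1, which insulin represses, was higher pre-hyperglycemia than in BBDR.+/+ (0.61, adjusted p = 0.0300). The medians were -0.10, -0.22 and 0.07.

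Over all lists, core clock and cell markers included, 14 of 49 dimmer probe sets were called post-hyperglycemia versus BBDR.+/+, 13 lower and 1 higher. The brightest gave 9 higher and 3 lower there, and 5.15% of all probe sets were called. Alb stands in the target list and in the hepatocyte list and is counted in both. Post- versus pre-hyperglycemia 4 of the 49 were called, 2 in each direction, beside 2.18% of all probe sets. Pre-hyperglycemia versus BBDR.+/+ 2 were, 1 in each direction, beside 0.718%. The share called among the dimmer probe sets of the whole array was not computed. The post-hyperglycemia arrays are those with the larger control differences, whose part in these calls was not tested.

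Markers of other cells of the liver moved with the groups in part, and their part in the results above was not tested. In bulk liver, fewer cells of a type and less RNA per cell cannot be told apart. Of the neutrophil markers 2 of 4 were measured, S100a8 and S100a9, and both were higher than in BBDR.+/+ in each lyp/lyp group, with a summed signal of both (log2) of 5.86 to 5.94 in BBDR.+/+, 7.25 to 7.70 pre-hyperglycemia and 7.26 to 7.38 post-hyperglycemia. Post-hyperglycemia, 2 of 3 measured Kupffer cell markers (Cd163 and Clec4f) and 1 of 4 endothelial markers (Pecam1) were higher than in BBDR.+/+. Pre-hyperglycemia, 1 of 4 stellate cell markers (Col1a1) was higher than in BBDR.+/+ and than post-hyperglycemia, with its dimmer probe set higher than in BBDR.+/+ in both lyp/lyp groups, and 1 of 3 erythroid markers (Alas2) was higher than in BBDR.+/+. Of 6 pancreatic acinar markers 1 was higher post- than pre-hyperglycemia. T cell markers, all 5 measured at the 23.1st to 51.7th percentile of brightness, were not called by limma in any comparison by their brightest probe sets (at most 2 at an unadjusted p under 0.05), and neither were 2 B cell and 3 cholangiocyte markers (at most 1). A dimmer probe set of the T cell marker Cd8a was at -0.43 post-hyperglycemia versus BBDR.+/+ (1369877_at, adjusted p = 0.0497, limma).

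The genes whose pattern over the 6 arrays lay nearest to Bhlhe40 and to Hlf were found by the root mean square difference of log2 signals, each centred on its own mean, over 14216 genes by their brightest probe sets. Nearest to Bhlhe40, whose own signal deviated by 0.38 about its mean, were Toe1 (0.08), Gsr, the glutathione reductase (0.08), and Msra, a methionine sulfoxide reductase (0.09). Gsr read 6.88 and 7.21 post-hyperglycemia against 7.53 or more on the other arrays, so both its post-hyperglycemia arrays were the lowest, as for Bhlhe40. Nearest to the brightest Hlf probe set, whose own deviation was 0.21, were Chtf8 (0.05), Mon1b (0.05) and Yars1, the tyrosyl-tRNA synthetase (0.06). These are likenesses over 6 arrays that share 3 group means.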

How the data were processed

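The authors hybridised liver RNA to Affymetrix RG230 2.0 arrays, quantified them with Expression Console and normalized them with Partek software. Neither the versions nor the algorithm were stated in the sources, and the labels and the methods name different amplification kits. The deposited values were normalized log2 signals, 1 per probe set and array, for 31099 probe sets, of which 57 Affymetrix controls were set aside. No filter on low signal was applied. Gene symbols came from the annotation of the array: 20826 probe sets carried 1 symbol, 436 several and 9780 none. Array files give no read depth, and the number of arrays limits the precision.

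limma 3.58.1 (R 4.3.3) was fitted with 1 mean per group over 6 arrays, without a block, with 3 residual and 7.7 prior degrees of freedom, two-sided, and a call at a Benjamini-Hochberg adjusted p under 0.05 over all 31042 probe sets. Named were all members, core clock genes called by any probe set or needed to describe Bmal1 and its partners, called members of the other lists, and the 3 nearest genes by pattern of each called member. The brightest probe set, by the mean over the arrays, stood for a gene in lists. Promoters came from RefSeq (GRCr8) and were searched in Python 3.11.15. The fit was tested on simulated data with independent noise. These held no control difference between groups and no shared rats, so they do not bear on those limits. Alternatives were centring on array medians or on ribosomal protein genes, quantile normalization, only the brightest 60% or 30% of probe sets, the arrays of 1 comparison, an intensity trend, array weights, a replicate block, the methods' t-test, adjusted p under 0.10 or 0.20, gene means, and leaving out each array. The mean difference between the 3' and 5' controls as a covariate was chosen after seeing the data. Rank products, named in the methods, were not used here. The members, the lists and their tests were chosen with earlier results of these data known. 1 pancreatic acinar marker that was called is not named here.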

Additional observations from a re-analysis of the deposited data

How the results depend on the processing

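The numbers of calls among the 11 probe sets of the clock output factors (1, 3 and 0 for post-hyperglycemia with BBDR.+/+, post- with pre-hyperglycemia and pre-hyperglycemia with BBDR.+/+) and among the 20 of the core clock (6, 2 and 4) moved as follows. Post-hyperglycemia versus BBDR.+/+, 2 clock output probe sets were called among the top 30% of probe sets by mean, which held 4 of the 11. Of all 9313 probe sets in that fit 1466 were called. With an intensity trend 2 were called, beside 2371 of all 31042 probe sets, and at an adjusted p under 0.20 it was 3, beside 4958. Post- versus pre-hyperglycemia, 1 was called on the arrays of the comparison only, beside 413 of all 31042. Gene means also gave 1, beside 328 of 14217 genes, as did the methods' t-test before adjustment, beside 2790 of 31042. In the same comparison 2 were called among the top 30%, beside 846 of 9313, or with array weights, beside 634 of 31042. With array weights Hlf 1385585_at was not called (adjusted p = 0.0531, limma). Pre-hyperglycemia versus BBDR.+/+, 1 was called at an adjusted p under 0.20, beside 1081 of all 31042. The methods' t-test before adjustment gave 2 there, beside 2784, and 3 post-hyperglycemia versus BBDR.+/+, beside 3362. After Benjamini-Hochberg the methods' t-test gave 0 for both sets in all 3 comparisons, beside 0, 0 and 1 of all 31042 probe sets. For the core clock an adjusted p under 0.20 gave 11, 6 and 7, beside 4958, 2603 and 1081 of all 31042. The unadjusted t-test gave 5 and 8 in the last 2 comparisons, beside 2790 and 2784. Gene means gave 2 in the last, beside 188 of 14217 genes. Quantile normalization, an intensity trend or an adjusted p under 0.10 gave 8 in the first, beside 1561, 2371 and 2710 of all 31042. With the control covariate both sets had 0 calls in the comparisons with post-hyperglycemia arrays, as had the whole array of 31042 probe sets. Leaving out each array gave 0 to 1, 0 to 1 and 0 clock output calls and 1 to 5, 2 to 3 and 1 to 3 core clock calls. The labels do not say that a replicate number marks a shared rat, litter, batch or day. Deviations of same-numbered arrays correlated at 0.11 between post- and pre-hyperglycemia, 0.14 between post-hyperglycemia and BBDR.+/+ and 0.26 between pre-hyperglycemia and BBDR.+/+ over probe sets, and 2 numbers a group do not settle the pairing. With a replicate block 1, 3 and 0 clock output and 7, 3 and 4 core clock probe sets were called.

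Only values that were not called changed sign, except Bhlhe40 post-hyperglycemia versus BBDR.+/+ with the covariate (0.11). In pre-hyperglycemia versus BBDR.+/+ Bhlhe40 was -0.031 after quantile normalization, -0.12 with ribosomal centring, which moved the median of all probe sets by -0.13, and -0.11 to 0.14 leaving out each array. Bhlhe41 was -0.050, 0.028 and -0.078 with ribosomal centring in the 3 comparisons, -0.091 to 0.12, -0.13 to 0.048 and -0.048 to 0.16 leaving out each array, and 0.36 with the covariate post- versus pre-hyperglycemia. Hlf 1384811_at was -0.0027 with ribosomal centring post-hyperglycemia versus BBDR.+/+ and -0.15 to 0.0067 leaving out each array in pre-hyperglycemia versus BBDR.+/+. With the covariate, Dbp was 0.76, Tef 1369919_at 0.22, Tef 1385374_at -0.46 and Tef 1390819_at 0.43 post-hyperglycemia versus BBDR.+/+, and Tef 1369919_at 0.26 and Tef 1385374_at -0.58 post- versus pre-hyperglycemia. Leaving out each array also gave -0.18 to 0.40 for Dbp and -0.037 to 0.28 for Tef 1385374_at post- versus pre-hyperglycemia, -0.19 to 0.089 for Tef 1390819_at post-hyperglycemia versus BBDR.+/+, and -0.24 to 0.032 for Tef 1390819_at and -0.25 to 0.036 for Tef 1369919_at pre-hyperglycemia versus BBDR.+/+. The cause was not tested.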
